A study of Mus with 6 samples.

Results

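miR-22 is a single microRNA whose hairpin yields 2 mature arms, mmu-miR-22-3p and mmu-miR-22-5p, written below without the species prefix, and both are described here across 6 small RNA libraries of mouse adipocytes. The arms were taken by name and are 2 of the 929 known mature names listed for every library. The libraries came from wild-type C57BL/6 adipocytes: 3 control libraries, and 3 libraries labelled as treated with chronic intermittent hypoxia (CIH), in which oxygen is lowered and restored over and over, as happens in sleep apnoea. All 6 share genotype, strain and cell type. The labels do not say whether each library had its own animal or culture, and they give no age, fat depot or duration of exposure, so the spread between libraries may be technical. The arms were selected on values already known from these libraries, namely their levels, their arm ratio, the contrast of CIH with control and that of the libraries numbered 3 with the others. Those values are therefore given as a description without p-values.

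A microRNA hairpin is cut by Drosha and Dicer into a short duplex, and one strand is usually kept in an Argonaute protein while the other is degraded. In miR-22 the 3p strand is the one known as the guide, and the 5p strand is the usual passenger. miR-22-3p is abundant in heart and skeletal muscle and is known to repress the deacetylases Sirt1 and Hdac4. In fat, it has been reported to act on adipocyte differentiation through Hdac6, and mice without miR-22 have been reported to gain less fat on a high-fat diet. The gene Mir22 lies on chromosome 11 from 75463716 to 75463810 (GRCm38.p6, RefSeq), within the span of its noncoding host gene Mir22hg (75461539 to 75466690). The RefSeq table used here gives no exons, so the position relative to the exons of the host is not stated.

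Total counts per library ran from 6291101 to 11264151, so a floor of 3 counts corresponds to 0.266 to 0.477 CPM (a count as a part of its library's total, on 1 common scale). Such floors, and the binomial intervals below, hold for counting error alone. The libraries numbered 3, 1 in each group, stood apart from the other 4. Their tables list 1186 names against 1053, and miR-148a-3p took 24.9% to 49.4% of their reads, compared with 2.81% to 5.53% elsewhere. This split follows the library number and is not a group of the study, so the levels, differences and arm ratios of miR-22 are given with and without those libraries. No miRNA is specific to adipocytes, so the cell type label has no defining marker in these tables.

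miR-22-3p was one of the most abundant miRNAs in 4 libraries and a minor one in the other 2. Its level was 21285 CPM in control 1, 16672 CPM in control 2, 20927 CPM in CIH 1 and 17762 CPM in CIH 2, which placed it 8th to 11th among the shared names. In control 3 the level was 579 CPM (place 49) and in CIH 3 it was 801 CPM (place 65). The counts behind these 2 low values were 4786 and 9022 reads, far above the floor of 3 counts. The mean was 19162 ± 2294 CPM (SD, n = 4) in the libraries numbered 1 and 2 and 690.2 ± 157 CPM (SD, n = 2) in those numbered 3, a 27.8-fold gap. The gap was 32.8-fold among control libraries and 24.2-fold among CIH libraries. In bulk RNA, fewer cells that make miR-22 and less miR-22 per cell cannot be told apart. The libraries numbered 3 also differ in the number of names listed, so a technical difference cannot be told apart from either.

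The passenger arm was lower in the same libraries, by much less. The level of miR-22-5p was 254 CPM in control 1, 185 CPM in control 2, 270.0 CPM in CIH 1 and 185 CPM in CIH 2. Control 3 held 59.3 CPM of it, and CIH 3 held 79.6 CPM. The means were 224 ± 44.9 CPM (SD, n = 4) and 69.5 ± 14.4 CPM (SD, n = 2), a 3.22-fold gap. For both arms the libraries numbered 3 lay below all of the other 4, as they did for 148 of 456 miRNAs tested (32.5%); ranges of these sets that did not overlap, in either direction, were found for 203 (44.5%).

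**Figure D1:**
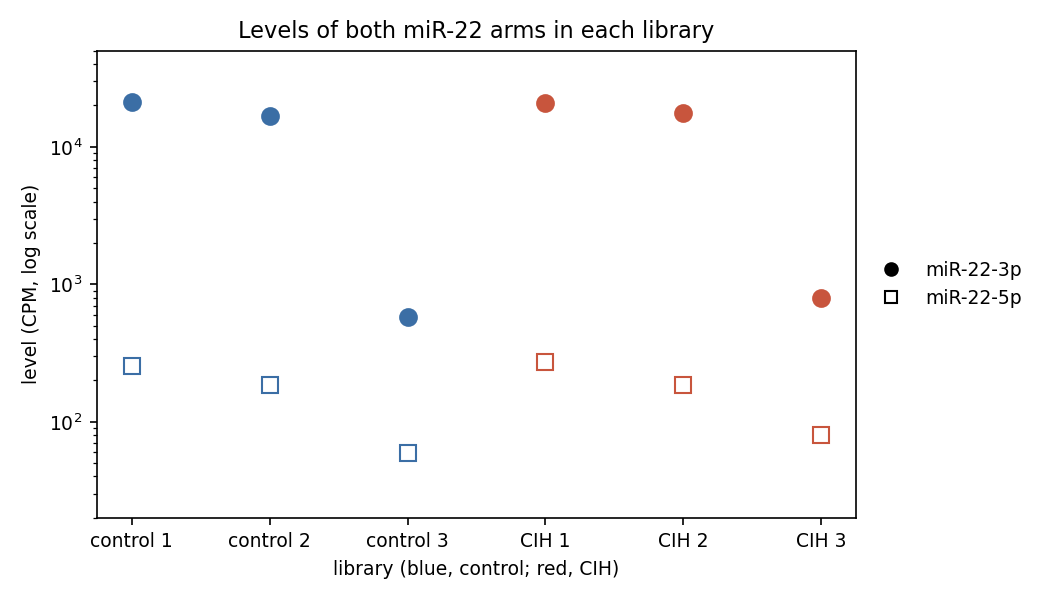
Level of miR-22-3p (filled circles) and miR-22-5p (open squares) in CPM on a log axis for each library, control in blue and CIH in red. Each point is 1 library. In the libraries numbered 3 the 3p arm falls to 579 and 801 CPM and the 5p arm to 59.3 and 79.6 CPM.

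With counts scaled by TMM (a correction for differences in library composition) and group kept in the model, the log2 difference of the libraries numbered 3 from the others was -4.42 (SE 0.34) for miR-22-3p and -1.30 (SE 0.33) for miR-22-5p. By size, miR-22-3p was 6th of 456 miRNAs and miR-22-5p was 153rd. In this fit the quasi-likelihood test of edgeR called 114 miRNAs (25%), of which 62 were lower (13.6%) and 52 higher (11.4%), and both arms were among those called lower. With library totals alone 43 were lower and 17 higher. Nothing is read from these 2 calls, since the arms were chosen with this contrast known. The call of miR-22-3p was present in all 12 alternatives, while that of miR-22-5p was lost with RLE size factors and without any 1 of control library 1, control library 2, CIH library 1 or CIH library 2.

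Because the arms fell unequally, the arm ratio differed between the sets of libraries, and it needs no scaling between libraries. Reads of the 3p arm outnumbered those of the 5p arm 83.8-fold in control 1, 90.2-fold in control 2, 77.5-fold in CIH 1 and 95.9-fold in CIH 2. In the libraries numbered 3 the ratio was 9.77 in control and 10.1 in CIH. On the log2 scale the mean ratio was 6.44 ± 0.13 (SD, n = 4) against 3.31 ± 0.03 (SD, n = 2), a difference of -3.13. The 3p arm therefore remained the more abundant arm in every library, by about an order of magnitude where it was lowest.

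As a share of miR-22 reads, the 5p arm made up 1.18% in control library 1 (exact 95% binomial interval 1.12% to 1.24%) and 1.10% in control library 2 (1.05% to 1.15%). In CIH library 1 it made up 1.27% (1.22% to 1.33%) and in CIH library 2 1.03% (0.986% to 1.08%). The intervals of CIH libraries 1 and 2 did not overlap, so these 2 libraries of 1 group differed by more than counting error. In the libraries numbered 3 the share was 9.29% in control (8.52% to 10.1%) and 9.04% in CIH (8.49% to 9.62%). These 2 intervals overlapped, although the libraries differ in level.

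**Figure D2:**
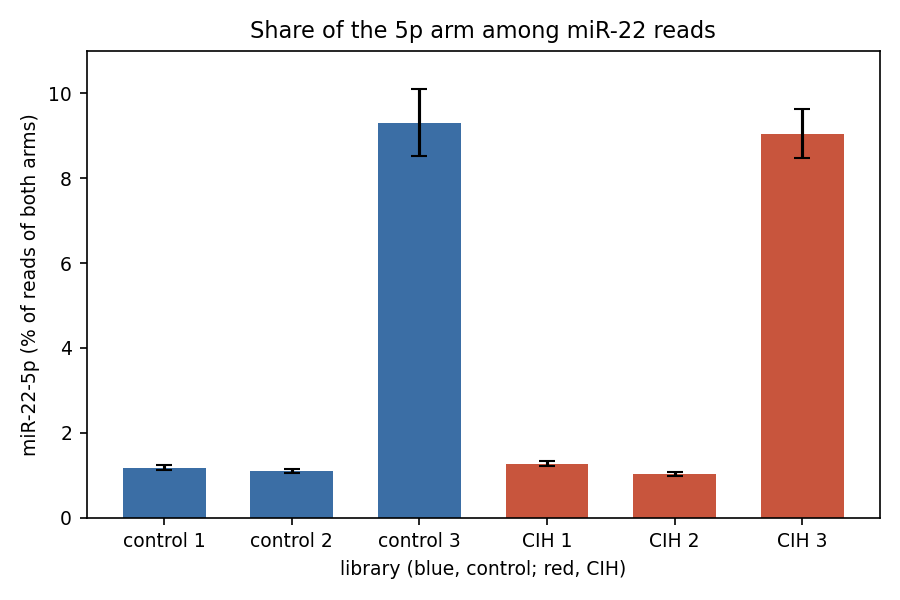
Share of miR-22-5p among reads of both miR-22 arms, in percent, for each library (blue, control; red, CIH). Bars start at 0 and whiskers are exact 95% binomial intervals for counting error. The 4 libraries numbered 1 and 2 lie between 1.03% and 1.27%, and the libraries numbered 3 at 9.29% and 9.04%.

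Many other miRNAs also changed their arm ratio between the sets. Among 88 miRNAs with at least 10 counts for each arm in every library, the ranges of the libraries numbered 3 and of the others did not overlap for 43 (48.9%), miR-22 among them. The median size of the shift over the 88 was 0.94 on the log2 scale. miR-22 had the most negative shift of the 3p over 5p ratio and the 4th largest in size, after miR-30e (4.41), miR-28a (3.49) and miR-542 (3.19), whose ratios all shifted toward the 3p arm. The shifts had no common direction: the 3p over 5p ratio was higher in the libraries numbered 3 for 47 miRNAs and lower for 41. The more abundant arm, set by the mean log2 ratio over all libraries, lost ground to the other in 39 and gained in 49. That mean includes the libraries numbered 3, so these counts depend in part on the shift itself. For miR-28a, counted by its 3p arm, the 5p arm was the more abundant in every library numbered 1 or 2. miR-30e, whose more abundant arm is 5p, and miR-22 had the largest losses of the more abundant arm. They were followed by miR-27a (-2.69), known to restrain adipocyte differentiation.

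miRNAs with a bias between arms about as strong as that of miR-22 did not all shift this way. By the size of the mean log2 ratio, miR-22 (5.39) was 27th of the 88. Its nearest neighbours with a stronger bias were miR-125a, miR-542 and miR-1839, and those with a weaker bias were miR-151, miR-467a and miR-1981. Their 3p over 5p ratios shifted by 1.33, 3.19, -0.81, 1.34, 0.40 and -0.09 in the libraries numbered 3. Of these, miR-125a and miR-467a moved toward an even ratio, as miR-22 did. The ratios of miR-542, miR-1839 and miR-151 moved away from it, and miR-1981 barely moved (SD over the 6 libraries 0.45). For miR-151, miR-467a and miR-1981 the ranges of the libraries numbered 3 and of the others overlapped. miR-467a belongs to a family of near-identical copies, so the assignment of its reads is uncertain.

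Between CIH and control, neither arm separated the groups. Over all 6 libraries miR-22-3p averaged 13163 ± 10822 CPM under CIH, compared with 12846 ± 10870 CPM in the controls (SD, n = 3 each). miR-22-5p averaged 178 ± 95.4 CPM under CIH, compared with 166 ± 98.7 CPM. The ranges of the groups overlapped for both arms, as they did for all but 51 of 456 miRNAs (11.2%). The log2 difference was 0.17 (SE 1.25, 95% interval -2.75 to 3.09) for miR-22-3p and 0.09 (SE 0.58, 95% interval -1.25 to 1.43) for miR-22-5p. These intervals allow changes of more than a doubling in either direction. In this comparison edgeR called 0 of 456 (0%) by its quasi-likelihood test, with 23 below an unadjusted p of 0.05; DESeq2 (37 below it) and limma-voom (21) called 0 as well.

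Levels of miR-22 differed more by library number than by group. With the library number as a block, the log2 difference between CIH and control was 0.01 (SE 0.31) for miR-22-3p and 0.00 (SE 0.35) for miR-22-5p. Without control library 3 the unblocked difference of miR-22-3p was -0.36, and without CIH library 3 it was 0.75. Within each number, the log2 difference in CPM of miR-22-3p was -0.02 for number 1, 0.09 for number 2 and 0.47 for number 3. For miR-22-5p these differences were 0.09, 0.00 and 0.42. By CPM, both arms were thus close to control in the first 2 pairs, and higher in CIH by similar amounts in the third. That pair has no replicate behind either value, and its direction depends on the scaling. The TMM factors, used in the fit with the block, were 0.636 for control 3 and 1.11 for CIH 3. This gap is enough to reverse the sign of both differences in the third pair.

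Within the libraries numbered 1 and 2 alone the comparison was much tighter. miR-22-3p averaged 19344 ± 2238 CPM under CIH, compared with 18979 ± 3262 CPM in the controls (SD, n = 2 each). miR-22-5p averaged 228 ± 59.9 CPM under CIH, compared with 219 ± 49.0 CPM. After TMM scaling the log2 differences were 0.17 (SE 0.20, 95% interval -0.24 to 0.59) and 0.19 (SE 0.23, 95% interval -0.28 to 0.66). With library totals alone they were 0.03 and 0.05, because this scaling lowers the median of all miRNAs from -0.03 to -0.17. By edgeR's quasi-likelihood test 43 of 459 miRNAs were called here (9.37%), 19 of them higher (4.14%) and 24 lower (5.23%), or 7 higher and 27 lower with library totals alone. Neither arm of miR-22 was called under any setting. The count of 43 ranged from 9 to 97 when single libraries were left out.

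The mean arm ratio of miR-22 differed little between CIH and control. Its mean log2 value was 5.396 ± 1.796 under CIH and 5.391 ± 1.822 in the controls (SD, n = 3 each), a difference of 0.01. Within the libraries numbered 1 and 2 the difference was -0.01, against a spread of 0.08 (SD, n = 2) in control and 0.22 (SD, n = 2) in CIH, and in the pair numbered 3 it was 0.04. Over the 88 miRNAs the median size of this difference was 0.33 in 6 libraries, and that of miR-22 was the smallest. Within the libraries numbered 1 and 2 the median size was 0.37, and miR-22 was 86th by size. The groups' arm ratios did not overlap for 5 of the 88 (5.68%), and miR-22 was not one of them.

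**Figure D3:**
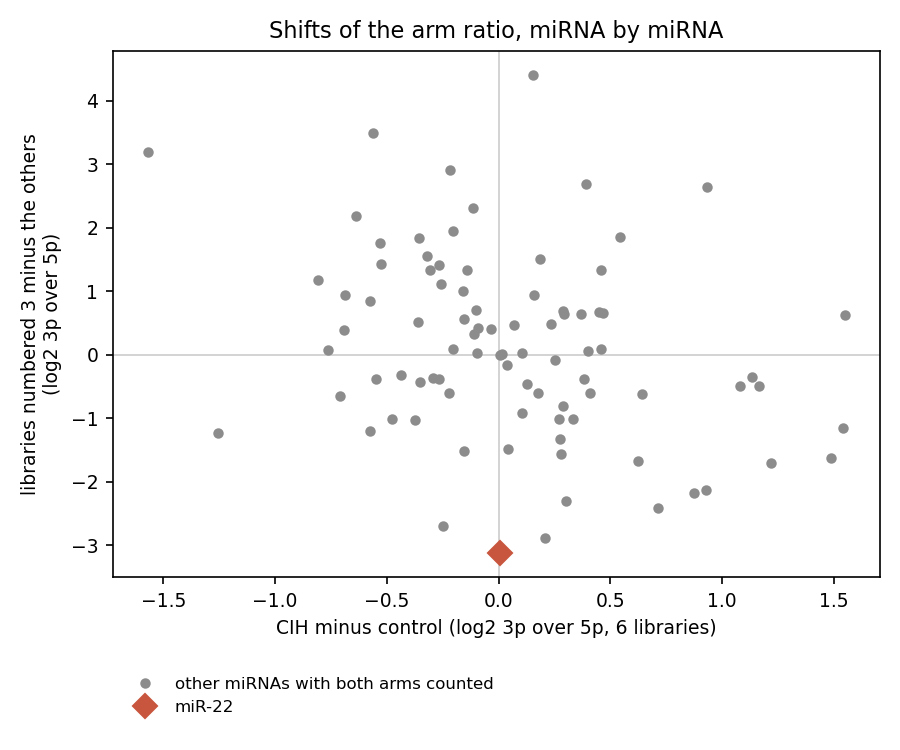
Shift of the arm ratio (log2 of 3p over 5p) for each of 88 miRNAs: CIH minus control over 6 libraries on the x axis, and libraries numbered 3 minus the others on the y axis. miR-22 (red diamond) lies at 0.01 and -3.13, and each grey point is another miRNA.

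The miRNAs whose levels followed miR-22 most closely were picked by their correlation over these 6 libraries. Their lower levels in both libraries numbered 3 follow largely from that choice, so nothing is read from them. Of all 456 miRNAs tested, 148 (32.5%) were lower in both libraries numbered 3 than in the other 4. The 2 arms correlated with each other at r = 0.976 over the 6 libraries (log2 of CPM + 1). Among 257 miRNAs with a mean of at least 10 CPM, miR-484, known to act on mitochondrial fission, was closest to both arms (r = 0.993 with 3p and 0.987 with 5p). Its level was 183, 152 and 65.4 CPM in control 1, 2 and 3 and 187, 173 and 75.6 CPM in CIH 1, 2 and 3. The others closest to miR-22-3p were miR-193a-5p, miR-676-5p, miR-107-3p and miR-708-5p (r = 0.982 to 0.983), and those closest to miR-22-5p were miR-339-3p, miR-132-3p, miR-744-5p and miR-676-5p (r = 0.974 to 0.986). miR-107-3p, known as a regulator of insulin sensitivity, was at 385, 357 and 69.9 CPM in control 1, 2 and 3 and at 284, 268 and 66.2 CPM in CIH 1, 2 and 3. These correlations describe 6 points that fall into 2 clusters and share library depth and scaling.

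One of these, miR-132-3p, comes from the nearest measured miRNA genes on the chromosome. Mir132 (75173682 to 75173747) and Mir212 (75173388 to 75173478), which respond to the transcription factor CREB, lie 289969 and 290238 bases from Mir22, and Mir3971 also lies within the window of 500 kb but has no mature name listed for all libraries. The level of miR-132-5p was 31.6, 21.9 and 3.15 CPM in control 1, 2 and 3 and 56.3, 23.5 and 9.41 CPM in CIH 1, 2 and 3. Its log2 difference for the libraries numbered 3 was -2.17 (SE 0.44), which edgeR's quasi-likelihood test called lower. The corresponding values of miR-132-3p (-0.70, SE 0.34) and miR-212-5p (-0.58, SE 0.38) were not called, and miR-212-3p, at 0.355 to 1.23 CPM, was too low to test. Between CIH and control none of the 3 tested was called in 6 libraries or within the libraries numbered 1 and 2.

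Among 18 miRNAs reported to promote adipocyte differentiation, all of them tested, 5 were called lower and 2 higher in the libraries numbered 3, where 13.6% of all 456 miRNAs were called lower and 11.4% higher. The median was -0.68, against -0.11 over all. miR-21a-5p was among the lower ones, at -1.66 (SE 0.28). The higher ones include miR-148a-3p, at 3.602 (SE 0.31). miR-143-3p, at -0.59 (SE 0.28), was not called. Of 14 reported to restrain differentiation, 11 were tested, 3 were called lower and 0 higher (median -0.84), with miR-27a-3p at -1.99 (SE 0.48), miR-224-5p at -1.69 (SE 0.42) and miR-27b-3p at 0.33 (SE 0.27). Between CIH and control in 6 libraries, 0 members of either list were called, as were 0% of all miRNAs (medians -0.19 and 0.04, against 0.04 over all). Within the libraries numbered 1 and 2, where 5.23% of all 459 miRNAs were called lower and 4.14% higher, 1 of 18 promoting members was called lower and 0 higher (median -0.19, against -0.03 over all). There, 3 of 12 tested restraining members were called higher and 0 lower, while 9 of the 12 had a value below 0 (median -0.21, against the same -0.03).

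Sums of marker miRNAs of some other cell types also differed between the sets of libraries in which miR-22 differed. Of all 456 miRNAs tested, 203 (44.5%) had ranges of these sets that did not overlap, so such a difference is not particular to markers. The part of these cell types in the miR-22 levels was not tested. Of 34 marker names in 8 lists, 31 were listed for all libraries. Summed heart and skeletal muscle miRNAs, of which 4 of 7 were listed, ran from 13.9 to 41.2 CPM in the libraries numbered 1 and 2. Control 3 held 113 CPM of them, and CIH 3 held 29.8 CPM. Of 3 tested, 2 had a log2 value above 0 in the libraries numbered 3 and 1 below. Only miR-206-3p was called, higher at 4.18 (SE 0.52), where 11.4% of all miRNAs were called higher. Its level was 14.6 CPM in control 3, 10.2 CPM in CIH 3 and at most 1.36 CPM in the others. Erythroid sums ran from 60.3 to 154 CPM in the libraries numbered 1 and 2 and from 21.0 to 54.8 CPM in those numbered 3. Their members did not move together: miR-451a was lower in both libraries numbered 3 (8.35 and 3.20 CPM) than in the others (43.9 to 129 CPM), while miR-486a-5p was highest in control 3, at 46.5 CPM. Both arms of miR-144 were at or near 0 in every library, at 0.545 CPM or less. Epithelial sums ran from 126 to 409 CPM and from 18.6 to 76.3 CPM, with miR-141-3p and miR-429-3p at 0 in both libraries numbered 3. Neuronal sums ran from 306 to 533 CPM and from 209 to 215 CPM.

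Leukocyte sums were low throughout, at 2.09 to 4.29 CPM and 0.266 to 0.363 CPM. There miR-223-3p was at 0 in both libraries numbered 3, and miR-142a-3p was at 0 in these and in control 2 and CIH 2. Endothelial sums ran from 73.1 to 137 CPM and from 33.8 to 100.1 CPM, the hepatocyte miRNA miR-122-5p from 2.09 to 5.59 CPM and from 3.28 to 4.12 CPM, and fibroblast and stromal sums from 101869 to 147332 CPM and from 63644 to 121813 CPM. miR-143-3p was the largest member of the stromal sum in every library, but in CIH 3 it held only 55147 of the 121813 CPM. Of the 5 members, 4 had a log2 value above 0 in the libraries numbered 3 (median 1.04). By CPM, this rise was found in CIH 3 and not in control 3. miR-199a-3p, miR-199a-5p (20225 CPM), miR-214-3p (2759 CPM) and miR-145a-5p (1213 CPM) were highest in CIH 3. Control 3 was the lowest library for miR-199a-3p, miR-214-3p (126 CPM) and miR-145a-5p (440 CPM). Its miR-199a-5p level, 2731 CPM, lay within the range of the libraries numbered 1 and 2. miR-199a-3p stood out in CIH 3, at 42469 CPM, and was at 3220 CPM in control 3 and 6996 to 10349 CPM in the others.

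Between the groups the ranges of all 8 sums overlapped over 6 libraries. Within the libraries numbered 1 and 2, 2 of the 8 did not overlap and were lower under CIH. With 2 libraries a group, such separation arises easily. The share of all miRNAs that separated in this split was not counted, so nothing is read from the 2. The epithelial sum was 409 and 334 CPM in control 1 and 2, compared with 169.6 and 126 CPM in CIH 1 and 2. Of its 5 tested members, 2 were called lower there, miR-205-5p and miR-203-3p, where 5.23% of all 459 miRNAs were called lower. The epithelial sum was also lower under CIH in the pair numbered 3, at 18.6 CPM, compared with 76.3 CPM. That pair has 1 library a group. The stromal sum was 130145 and 147332 CPM in control 1 and 2, compared with 119461 and 101869 CPM in CIH 1 and 2. Of its 5 members, 0 were called there, where 9.37% of all 459 miRNAs were called in either direction.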

How the data were processed

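Small RNA was sequenced from adipocytes in 6 libraries. Each deposited table holds raw counts per mature miRNA; in 3 of them the header says FPKM, but the values are whole numbers with unequal totals and were taken as counts. GRCm38, DESeq 1.8.3 and featureCounts 1.5.0-p3 appear in the submitters' processing notes, with no role stated. For adapter trimming, aligner, miRBase release and multiply matching reads, the steps taken were not given in the sources used here. Predicted names were left out, because their numbering need not match between tables, and the 929 shared known names hold at least 99.97% of each library. CPM used the library total. Counts were tested with edgeR 4.0.16 (quasi-likelihood F test, robust, TMM, filterByExpr, Benjamini-Hochberg at 0.05) in R 4.3.3, with DESeq2 1.42.0 and limma-voom (limma 3.58.1) as alternatives. Standard errors were derived from the log2 difference and its F value. The fits were tested on simulated counts. Python 3.11.15, pandas 2.3.3, scipy 1.17.1 and matplotlib 3.10.9 served for tables, intervals and plots. Columns of other samples numbered 0.

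The members, lists and tests were chosen with earlier results of these data known. miRNAs were named by rule: the 5 closest in level to each arm, the 3 nearest on each side in size of the arm ratio, miRNA genes within 500 kb, and up to 3 of each list by abundance; miR-30e, miR-28a, miR-542 and miR-27a were added for their arm shifts after their values were seen. The planned search for miRNAs of the same seed was not made, and no sequence is printed. One further list of miRNAs is not reported here. Libraries of the same number correlated in their deviations from group means at 0.31, 0.33 and 0.41. As all exceed 0.1, the fit with a block took the numbers as pairs. However, control library 1 correlated with CIH library 2 at 0.40, and control library 2 with CIH library 1 at 0.21. Both also exceed 0.1, so this check cannot tell how the libraries numbered 1 and 2 pair, and the labels state no pairing.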

Additional observations from a re-analysis of the deposited data

How the results depend on the processing

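Of 132 combinations of a result and an alternative, 116 stayed within the spread between libraries, or within 1.5 times for a count, and 0 changed sign after a call. For CIH against control in 6 libraries, that spread includes the gap of the libraries numbered 3 and is wide. A change of sign was counted only for a result called in the main fit, and neither arm was called between CIH and control. The tally therefore says little about the CIH differences. The count of miRNAs called between the libraries numbered 3 and the others moved from 114 to 60 with library totals alone, and from 2 to 253 when 1 library was left out (2 without control library 1 or CIH library 2, 30 without control library 2, 34 without CIH library 1, 223 without CIH library 3, 253 without control library 3). Within the libraries numbered 1 and 2, the count of 43 ranged from 9 to 97 (9 when control 2 was left out, 14 for control 1, 23 for CIH 1 and 97 for CIH 2) and was 48 with the replicate block. These fits let a lone library borrow the spread of the rest. Causes were not tested. For the libraries numbered 3, miR-22-3p was at -4.81 and miR-22-5p at -1.70 with library totals alone, where the median of all miRNAs moved from -0.11 to -0.49; leaving out 1 library gave -4.66 to -4.09 and -1.57 to -0.94. Between CIH and control, leaving out 1 of 6 libraries gave -0.36 to 0.75 for miR-22-3p, -0.18 to 0.47 for miR-22-5p and -1.05 to 1.04 for the arm ratio, since it unbalances the libraries numbered 3; with RLE size factors miR-22-5p was at -0.01. The arm ratio shift of the libraries numbered 3 ranged from -3.18 to -3.08 over its 8 alternatives. With the replicate block the CIH arm ratio difference was 0.01 in 6 libraries and -0.01 within those numbered 1 and 2. Neither arm of miR-22 was called with the block in either comparison. Depth does not limit the arms, with at least 490 reads in every library.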
